A study of Gallus gallus with 54 samples.

Results

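The libraries described here came from the theca cell layer of F1 follicles, in an untreated hen the largest follicles of the ovary and the next to ovulate. They were chosen by their sample labels and number 6 of the 54 libraries of the series, 3 from hens fed bicalutamide (bic) and 3 from hens fed water (NC). The series profiled granulosa cells (GCs) and theca cells (TCs) of 6 mm, F5 and F1 follicles in NC hens, hens fed bic and hens fed the androgen agonist mestanolone (mes). All hens were White Leghorns of 35 to 40 weeks of age in groups of 10, and the cell layers were separated from fresh follicles before RNA was extracted. Bic hens received 15 mg of the drug over 4 days of feeding, and their follicles were taken 1 day after it was stopped. Where a hen under these drugs had more preovulatory follicles than the usual labels, the study labelled the surplus F1 as well. In its text it names a significant rise in their number only for its highest dose of mes, and none for bic. It also reports that egg production fell in hens fed 15 mg of bic. Whether bic and NC follicles labelled F1 were at the same stage was not tested. The comparison addresses what a drug that blocks androgen action does in the theca of follicles labelled F1.

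Androgens are steroid hormones that change transcription in the cells they act on, and bic is a non-steroidal antiandrogen. In the hen follicle the theca layer converts progestins made by GCs into androgens and oestrogens. CYP17A1, the 17-hydroxylase and 17,20-lyase, is the enzyme of the androgen step, and the theca is known to lose much of its androgen and oestrogen synthesis as the follicle approaches ovulation while the GCs produce progesterone.

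Total counts ranged from 42844619 to 52172062 over the 6 libraries. Bic replicates 1 and 2 carry the same hen number and the same library number. Their counts differed by a chi-square of 1.44 per degree of freedom, scaled down by 4 because a read pair can be counted up to 4 times, against 3.00 and 3.08 for either with replicate 3 and 3.52 to 4.50 between NC libraries. Replicates 1 and 2 were therefore summed, and bic was tested as 2 hens against 3 NC hens. The libraries are described as biological replicates, and the p-values measure the spread between these few hens only.

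NC replicate 1 held granulosa RNA. INHA, the inhibin alpha subunit made by GCs, stood at 353 FPKM (fragments per kilobase of transcript, scaled to library size) there, at 0.337 and 1.17 in NC replicates 2 and 3, and at 13.1, 21.3 and 0.756 in bic replicates 1 to 3. It averaged 1500 FPKM in the NC GCs of F1, of which replicates 1 and 2 carry the same hen number and the same library number. Means of these GCs therefore weigh that hen more than the hen of replicate 3. The mean of all 8 granulosa markers was 119 FPKM in NC replicate 1, 75.4 and 83.1 in the other NC libraries and 58.9 to 73.6 in the bic libraries, but 3 of the 8 (GJA1, AMH and OCLN) were lower in NC GCs of F1 than in theca. GJA1 stood at 227 to 426 FPKM in the 6 libraries and at 18.1 in those GCs, so the mean is no measure of granulosa RNA, for which INHA is used here. The 10 theca markers (DCN, COL1A1, ACTA2, CYP17A1 and others) averaged 679 FPKM in NC replicate 1 and 857 to 878 in the other 5 libraries. CYP17A1 itself stood at 835 to 967 FPKM in bic and 14.4 to 27 in NC, which raised the bic means. Such means show abundant theca markers in all 6 libraries, not an equal theca content. NC replicate 1 was also lowest for smooth muscle markers (514 FPKM against 674 to 742), endothelial markers (21.7 against 30.3 to 32.9) and leukocyte markers (45.8 against 72.1 to 86.3). Blood markers averaged 63.5 to 104 FPKM in bic and 49.2 to 66.9 in NC, and oocyte markers were at 0.0346 to 0.0504 FPKM in every library. NC replicate 2 stood apart in its interferon-response genes, with a mean of 84.8 FPKM over 26 genes against 8.78 to 17.4 in the other libraries. In such bulk samples fewer cells of a type and less RNA per cell cannot be told apart.

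The bic libraries resembled each other more than the NC libraries did. Over 12674 genes the Spearman correlation of log2(FPKM + 1) was 0.982 between bic replicates 1 and 2, of the same hen. It was 0.969 between either and bic replicate 3, and 0.952 between NC replicates 2 and 3. NC replicate 1, which held granulosa RNA, correlated with the other NC libraries at 0.908 and 0.912. Bic libraries correlated with NC replicate 3 at 0.956 to 0.959, with NC replicate 2 at 0.93 to 0.942 and with NC replicate 1 at 0.895 to 0.912. These correlations run across genes that share their libraries and are given as a description.

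No gene passed the threshold, which asked for a Benjamini-Hochberg adjusted p of no more than 0.05 in edgeR's quasi-likelihood test over 16829 genes (0% called) and for 1 FPKM or more in the mean of a group. The smallest adjusted p was 0.0512, for CYP21A2 and CYP17A1. At an unadjusted p under 0.05 there were 1528 genes (9.08%), 841 at a higher level in bic (5.00%) and 687 at a lower level (4.08%), and the median log2 fold change of all genes was -0.04. The count changed when the bic libraries of hen 1 were kept apart. With 3 bic libraries as labelled edgeR called 23 genes higher and 22 lower (0.275% of 16341), while DESeq2 on the 2 hens called 265 higher and 239 lower (2.99%) and limma-voom 3 and 1. The genes below are therefore given as those with the smallest p in each direction, and none of them passed this test.

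CYP17A1 (chromosome 6, 23388033 to 23390510, Gallus_gallus-5.0) stood at 967, 891 and 835 FPKM in bic replicates 1 to 3 and at 17.3, 27 and 14.4 in NC replicates 1 to 3. Every bic library lay far above every NC library. The mean was 882 ± 66.8 FPKM (SD, n = 2 hens) in bic and 19.6 ± 6.57 (SD, n = 3) in NC, a ratio of 45.1. The log2 fold change was 5.39 with a standard error of 0.31 (edgeR adjusted p = 0.0512). It lay between 5.22 and 5.67 in every alternative fit, with adjusted p-values from 7.61e-60 in DESeq2 to 0.253 in edgeR with bic replicate 3 as the only bic library, and 0.00286 with the libraries as labelled. NC GCs of F1 held 0.092 FPKM of it, far below every theca library. In the hens fed mes, compared with the same NC libraries, CYP17A1 stood at 3.64, 6.27 and 6.71 FPKM at F1.

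CYP21A2 (chromosome 16, 52234 to 56078), the 21-hydroxylase of corticosteroid synthesis, stood at 55.2, 50.5 and 42.3 FPKM in bic and at 2.21, 3.15 and 2.19 in NC. The libraries again did not overlap, with a ratio of means of 18.9 and a log2 fold change of 4.13 with a standard error of 0.23 (edgeR adjusted p = 0.0512). Of these steroid hydroxylases CYP17A1 was much the more abundant in bic.

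**Figure D1:**
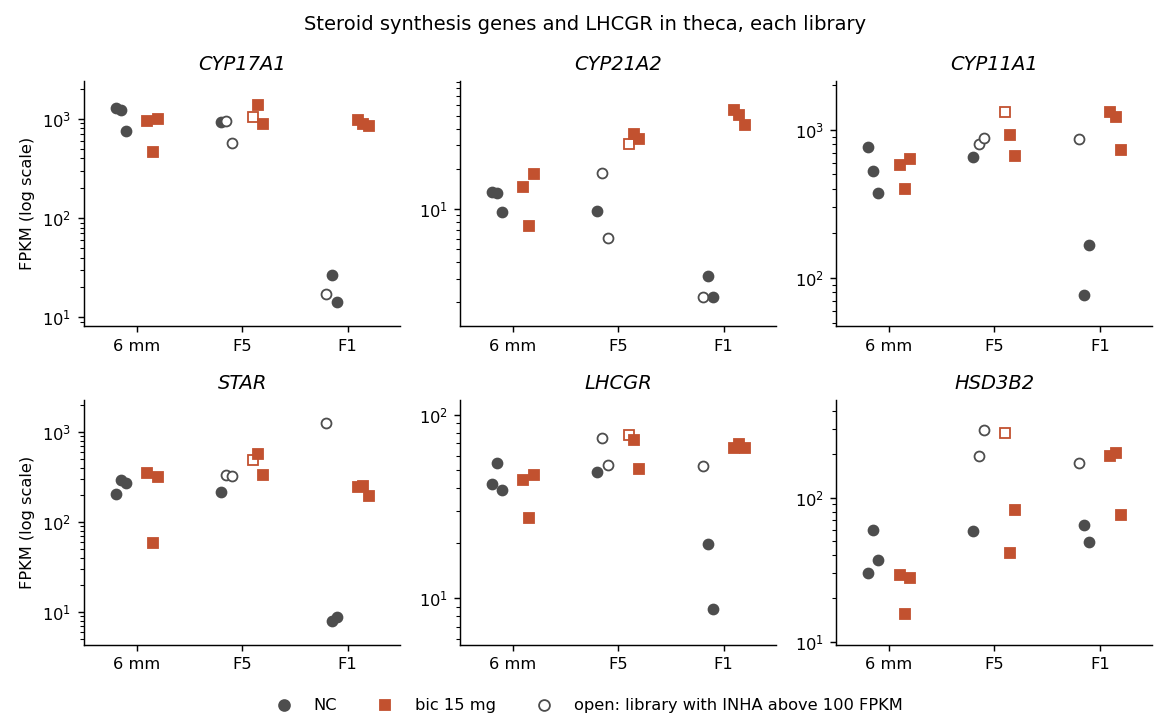
FPKM (log scale) of 6 genes in each theca library at 6 mm, F5 and F1, NC as grey circles and bic 15 mg as red squares, with open symbols for libraries with more than 100 FPKM of INHA. CYP17A1 lay at 14.4 to 27 FPKM in NC and at 835 to 967 in bic at F1, and the groups overlapped at 6 mm and F5.

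The level of CYP17A1 in bic F1 theca lay within the range of NC theca of smaller follicles. NC theca held 1270, 1210 and 753 FPKM at 6 mm and 927, 954 and 563 at F5, and bic theca held 941, 467 and 986 at 6 mm and 1050, 1360 and 880 at F5. Bic and NC libraries overlapped at both of these stages and parted only at F1. The difference between bic and NC at F1 minus that at F5 was 4.98 on the log2 scale with a standard error of 0.40 (edgeR interaction, adjusted p = 0.00516), and CYP17A1 was among the 4 of 17821 genes (0.0224%) that passed this test, while 1290 (7.24%) had an unadjusted p under 0.05. The locus named DEPTOR, described below, was another (3.47, standard error 0.39, adjusted p = 0.0287), and the other 2 are unplaced LOC genes listed at 0 in whole groups. F1 and F5 libraries carry the same hen numbers, and this test took them as independent, with no term for the hen. CYP17A1 kept its call when any single library was left out, with edgeR adjusted p-values of 0.00258 to 0.0332, whereas the DEPTOR locus lost it in 8 of 12 such fits. Without the 4 libraries of these groups with INHA above 100 FPKM (NC F1 replicate 1, NC F5 replicates 2 and 3 and bic F5 replicate 1), an alternative chosen after seeing the data, its difference was 5.06 with an adjusted p of 0.0832.

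CYP21A2 differed in that the bic libraries were already high at F5. It stood at 9.64, 18.6 and 6.02 FPKM in NC F5 and at 30.8, 36.2 and 33.7 in bic F5, without overlap and with a log2 fold change of 1.54 (edgeR adjusted p = 1.0), 1.38% of all genes having an unadjusted p under 0.05 in this direction at F5. At 6 mm the groups overlapped, with 13.5, 13.2 and 9.51 FPKM in NC and 14.5, 7.47 and 18.3 in bic. Its interaction between F1 and F5 was 2.60 with a standard error of 0.51 and did not pass (edgeR adjusted p = 0.520).

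The start of steroid synthesis could be read only with and without NC replicate 1. STAR, which carries cholesterol into mitochondria, stood at 244, 252 and 193 FPKM in bic, at 7.85 and 8.75 in NC replicates 2 and 3, and at 1280 in NC replicate 1, whereas NC GCs of F1 averaged 3790. The log2 fold change was -1.18 with a standard error of 2.22 with all libraries and 4.68 with a standard error of 0.21 without NC replicate 1 (edgeR adjusted p = 0.849 and 0.0746). CYP11A1, the side-chain cleavage enzyme that makes pregnenolone, stood at 1320, 1220 and 733 FPKM in bic and at 871, 76.5 and 168 in NC. Its log2 fold change was 1.25 with all libraries and 2.98 without NC replicate 1 (edgeR adjusted p = 0.665 and 0.219). LHCGR, the receptor for luteinising hormone, stood at 66.1, 69.7 and 66.1 FPKM in bic and at 52.9, 19.8 and 8.74 in NC, without overlap, with log2 fold changes of 1.15 and 2.18 (edgeR adjusted p = 0.606 and 0.246). For each of these 3 genes replicate 1 was the highest NC library and NC GCs stood above it, CYP11A1 at 2360 FPKM and LHCGR at 287. The part of granulosa RNA in these values was not tested beyond leaving the library out.

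HSD3B2, which makes progesterone from pregnenolone, followed the same pattern at 194, 203 and 75.9 FPKM in bic and 173, 64.2 and 49.1 in NC, with 845 in NC GCs. The groups overlapped only through NC replicate 1, and the log2 fold change was 0.37 with all libraries and 1.21 without it (edgeR adjusted p = 0.855 and 0.493). HSD17B1, a theca enzyme of oestradiol and testosterone synthesis, overlapped at 63.9 to 107 in bic and 70.5 to 256 in NC. CYP19A1, the aromatase that makes oestrogens, was low in both groups at F1, 0.301, 0.361 and 2.31 FPKM in bic and 2.45, 2.46 and 2.98 in NC, against 318 to 655 in NC theca of 6 mm (edgeR adjusted p at F1 = 0.633). So the enzyme of the androgen step was high in bic F1 theca without the aromatase that follows it. Over the 22 genes of steroid synthesis tested, 1 had a p under 0.05 at a higher level and 3 at a lower level, beside 5.00% and 4.08% of all genes. Without NC replicate 1 the counts were 3 and 3, beside 901 and 783 of all 16518 genes. The median log2 fold change was -0.21 and 0.08 in these fits. Those lower included AKR1D1, a reductase that inactivates steroid hormones, at 5.66, 6.12 and 4.57 FPKM in bic and 24.4, 43.5 and 11.5 in NC (log2 -2.44, edgeR adjusted p = 0.485).

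PGR, the progesterone receptor, stood at 37.8, 37.9 and 42.5 FPKM in bic and 21.6, 19.2 and 24 in NC (log2 0.78, edgeR adjusted p = 0.410), without overlap. At 6 mm PGR was again higher in each bic library (edgeR adjusted p = 0.863), at 32.1 to 36.1 FPKM against 21.9 to 25.0 in NC. At F5 the groups overlapped, at 23.2, 45.2 and 46.4 FPKM in bic and 33.6, 27.4 and 26.4 in NC. The oestrogen receptors were near 1 FPKM in both groups, ESR1 at 1.08 to 1.32 in bic and 0.829 to 1.35 in NC and ESR2 at 0.596 to 1.15 and 0.611 to 0.940. For ESR1 the log2 fold change of the counts was 1.15 (edgeR adjusted p = 0.541) although the FPKM overlapped, so its 2 measures differ. Over 22 nuclear receptors of the ovary the median was -0.22, or 0.03 without NC replicate 1, and NR0B1, a repressor of steroid synthesis genes, was lower in bic at 9.90, 7.19 and 9.60 FPKM against 33.1, 18.5 and 15.7 (edgeR adjusted p = 0.516).

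**Figure D2:**
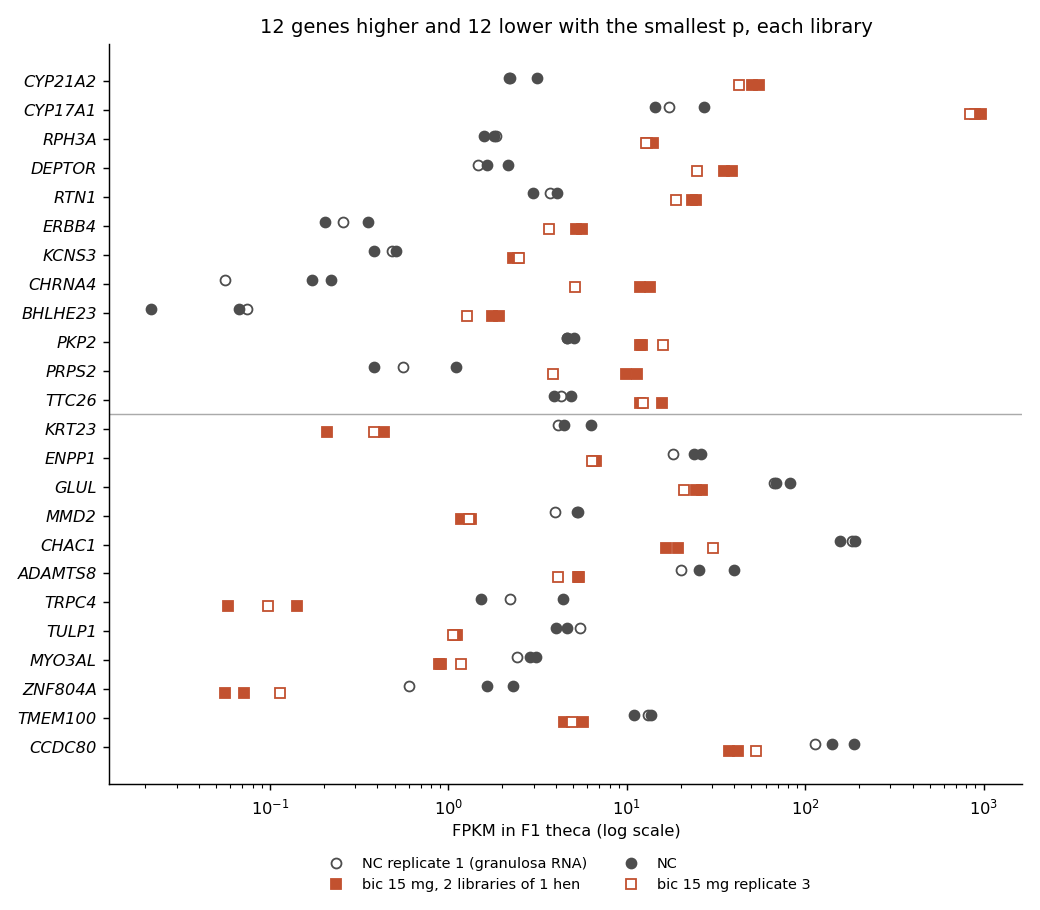
FPKM (log scale) in the 6 F1 theca libraries for the 12 genes higher and the 12 lower in bic with the smallest p, above and below the grey line. Circles are NC, open for replicate 1, and squares are bic, filled for the 2 libraries of hen 1 and open for replicate 3. The groups do not overlap for any of the 24.

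The other 10 genes with the smallest p at a higher level in bic were of mixed function. All 12 had no overlap between libraries, against 17.6% of all genes in this direction, a count from the contrast that chose them, from which nothing is read. RPH3A, a protein of vesicle exocytosis, stood at 13, 14.1 and 12.8 FPKM in bic and 1.84, 1.59 and 1.81 in NC (log2 2.77, standard error 0.18, edgeR adjusted p = 0.0531). RTN1, a reticulon of the endoplasmic reticulum, stood at 23.1, 24.5 and 18.8 against 3.72, 4.07 and 2.97 (log2 2.49, adjusted p = 0.118 by edgeR). ERBB4, a receptor for neuregulins of the EGF family, stood at 5.58, 5.21 and 3.65 FPKM against 0.257, 0.204 and 0.352 (log2 3.43, edgeR adjusted p = 0.139). In NC theca ERBB4 reached 0.638 to 1.82 FPKM at F5 and 0.666 to 1.75 at 6 mm, so its level in bic F1 lay above that of every NC theca library. The same held for CYP21A2, KCNS3, CHRNA4, BHLHE23, PRPS2, TTC26 and the DEPTOR locus, whereas PKP2 overlapped NC theca of F5. RPH3A and RTN1, by contrast, lay within the ranges of NC at 6 mm, 9.76 to 14.5 and 15.1 to 24.5 FPKM. All of these genes were chosen for a higher level in the same bic libraries. The share of all genes above every NC theca library was not counted, so nothing is read from how many of them did so.

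Next in order of p were genes of ion channels, nucleotide synthesis, cell contacts and cilia. KCNS3, a modulatory subunit of voltage-gated potassium channels, stood at 2.29 to 2.49 FPKM in bic and 0.384 to 0.509 in NC. PRPS2, a phosphoribosyl pyrophosphate synthetase, stood at 9.96, 11.4 and 3.87 in bic and 0.559, 0.383 and 1.10 in NC, and here bic replicate 3, the other hen, was lowest of the bic libraries. PKP2, a plaque protein of desmosomes, stood at 11.8 to 16 against 4.61 to 5.07, and TTC26, a protein of intraflagellar transport in cilia, at 11.8 to 15.7 against 3.91 to 4.86. Their edgeR adjusted p-values ran from 0.172 to 0.240.

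Among the 12 genes were 3 from a stretch of chromosome 20. The locus that the files name DEPTOR (9006995 to 9021292) stood at 39, 35.2 and 24.9 FPKM in bic and 1.46, 1.65 and 2.17 in NC (log2 4.03, standard error 0.27, edgeR adjusted p = 0.0531). The name is doubtful. RefSeq's GRCg7b annotation has DEPTOR, the inhibitor of the kinase mTOR, on chromosome 2 with the synonym DEPDC6 and an unnamed gene, LOC419242, between ARFGAP1 and COL20A1 on chromosome 20. In these files DEPDC6 is a separate locus on chromosome 2, and it stood at 35.3, 32.7 and 22.8 FPKM in bic and 28, 41.6 and 27.6 in NC (log2 -0.31, edgeR adjusted p = 0.68).

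CHRNA4 (9071114 to 9090148), a subunit of nicotinic acetylcholine receptors, stood at 13.5, 11.9 and 5.14 FPKM in bic and 0.0557, 0.171 and 0.221 in NC (log2 5.72, standard error 0.64, edgeR adjusted p = 0.172). BHLHE23 (8677344 to 8681420), a helix-loop-helix transcription factor, stood at 1.91, 1.75 and 1.27 against 0.0743, 0.0215 and 0.0667 (log2 4.60, edgeR adjusted p = 0.228). COL20A1, a collagen gene that starts 297 bp after the DEPTOR locus on the same strand, lay between it and CHRNA4 and was one of the 2 collagens with the smallest p. It stood at 5.29, 5.97 and 14.6 FPKM in bic and 0.887, 0.787 and 0.581 in NC (log2 3.44, edgeR adjusted p = 0.240).

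**Figure D3:**
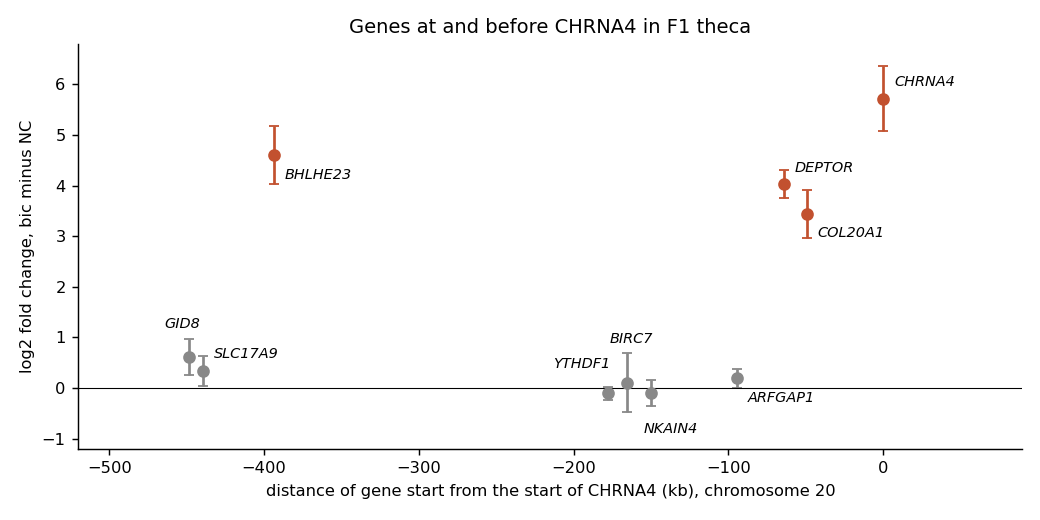
Log2 fold change (bic minus NC, edgeR, bars of 1 standard error) of genes tested at and before CHRNA4 (without a microRNA gene) against the distance of their starts from its start, red for an unadjusted p under 0.05. BHLHE23, the DEPTOR locus, COL20A1 and CHRNA4 lay at 3.44 to 5.72, and the other 6 genes at -0.10 to 0.61.

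The neighbours between these genes were at similar levels in both groups. YTHDF1 was at 11.7 to 12.7 FPKM in bic and 11.6 to 12.2 in NC, and ARFGAP1, directly before the DEPTOR locus, at 15.4 to 20.5 and 13.2 to 16.8. Since the library kit is not stated to keep the strand, reads that run from a gene into its neighbour, or from an overlapping antisense gene, cannot be told apart from its own.

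The genes with the smallest p at a lower level in bic were led by KRT23 (chromosome 27, 4953002 to 4962692), a type I keratin. It stood at 0.435, 0.209 and 0.381 FPKM in bic and 4.14, 6.26 and 4.47 in NC, 14.1 times lower in bic by the means, with a log2 fold change of -3.92 and a standard error of 0.33 (edgeR adjusted p = 0.118). In the hens fed mes KRT23 stood at 0.894, 2.19 and 0.979 FPKM at F1, also below every NC library. All 12 had no overlap between libraries (7.67% of all genes in this direction), again in the contrast that chose them. CHAC1 (chromosome 5, 24438649 to 24440766), an enzyme that breaks down glutathione, was the most abundant of them in NC, though CCDC80 stood above it in bic. It stood at 19.4, 16.5 and 30.4 FPKM in bic and 183, 156 and 191 in NC, a 7.31-fold difference (log2 -2.98, standard error 0.30, edgeR adjusted p = 0.148). Its level in NC GCs of F1 was 110 FPKM.

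Others lower in bic act on the outside of cells. ENPP1, an ectoenzyme that splits ATP into AMP and pyrophosphate, stood at 6.51, 6.72 and 6.41 FPKM in bic and 18.2, 23.8 and 26.0 in NC (log2 -1.90, edgeR adjusted p = 0.139). ADAMTS8, a secreted metalloprotease, stood at 5.38, 5.35 and 4.13 against 20.2, 39.9 and 25.4 (log2 -2.68, edgeR adjusted p = 0.228), and CCDC80, a matrix protein, at 37.4, 42.1 and 52.9 against 114, 142 and 188 (log2 -1.78, edgeR adjusted p = 0.240). All 3 were nearly absent from NC GCs, at 0.0391, 0.209 and 1.52 FPKM, far below the theca libraries. GLUL, glutamine synthetase, stood at 20.9 to 26.3 FPKM in bic and 66.9 to 82.1 in NC, and TRPC4, a cation channel, at 0.0581 to 0.141 against 1.52 to 4.39. MMD2, MYO3AL, ZNF804A and TMEM100 stood in bic at levels between 0.0562 and 5.69 FPKM, with edgeR adjusted p-values from 0.148 to 0.240. In NC F1 follicles 6 of the 24 genes higher or lower in bic had a higher level in GCs than in TCs, on the log2(FPKM + 1) scale and without NC theca replicate 1. RPH3A stood at 1.2, 0.791 and 6.67 FPKM in these GCs and RTN1 at 8.59, 8.65 and 1.21. Since replicates 1 and 2 are of the same hen, the place of RPH3A and RTN1 among the 6 rests on a single hen each.

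FKBP5 (chromosome 26, 67274 to 84861), a cochaperone of steroid receptors whose gene is induced by androgens and glucocorticoids in mammals, was lower in every bic library. It stood at 144, 142 and 156 FPKM in bic and 459, 347 and 342 in NC, a 2.56-fold difference (log2 -1.48, standard error 0.23, edgeR adjusted p = 0.298). Without NC replicate 1 the log2 value was -1.26, and NC GCs held 700 FPKM of FKBP5 and 54.4 of ZBTB16. In the hens fed mes FKBP5 stood at 207, 329 and 106 FPKM at F1, also below every NC library. ZBTB16 overlapped NC there, at 23.4, 33.4 and 7.66 FPKM in mes. TULP1, of the 12 lower genes, follows FKBP5 on the same strand 463 bp on and stood at 1.06 to 1.11 FPKM in bic against 4.00 to 5.5 in NC. ZBTB16, a zinc finger repressor that is a target of the same receptors in mammals, stood at 3.60, 4.25 and 9.79 FPKM in bic and 54.3, 26.6 and 25.7 in NC (log2 -2.51, edgeR adjusted p = 0.471).

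These were the 2 genes with the smallest p among 40 tested that respond to androgens in mammals. Of the 40, 3 had a p under 0.05 at a higher level and 2 at a lower level, beside 5.00% and 4.08% of all genes, and the median log2 fold change was -0.24 against -0.04 over all genes. Without NC replicate 1 the counts were 3 and 4, beside 901 and 783 of all 16518 genes, and the median was -0.10.

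**Figure D4:**
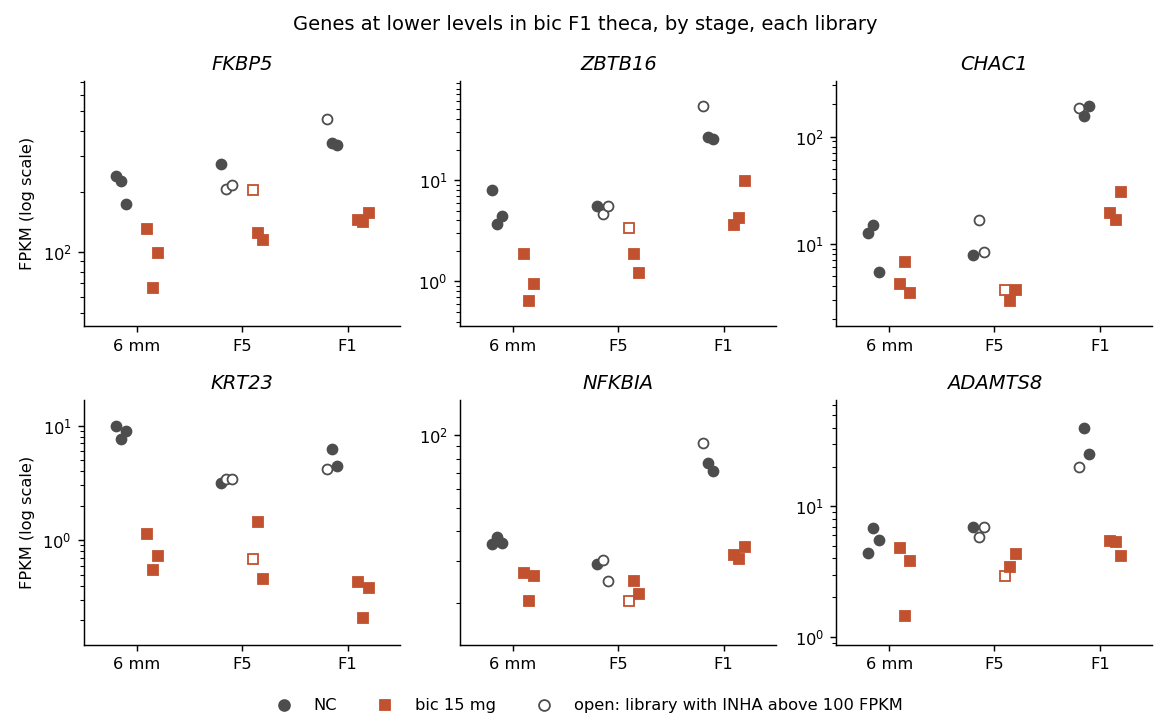
FPKM (log scale) of 6 genes at lower levels in bic F1 theca, in each theca library at 6 mm, F5 and F1, with symbols as in the plot of steroid genes. KRT23 lay at 0.555 to 1.13 FPKM in bic and 7.68 to 9.93 in NC at 6 mm, and FKBP5, ZBTB16 and KRT23 did not overlap between groups at any stage.

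The F5 and 6 mm libraries, which the choice of genes did not use, were read for the same 24 genes, a comparison added after seeing the data. Of the 12 genes higher at F1, 12 had a positive log2 fold change at F5 (50.0% of all genes) and 7 at 6 mm (51.5%). Of them 5 and 0 did not overlap between groups (4.32% and 5.15% of all genes), 4 and 0 had an unadjusted p under 0.05 (1.38% and 2.34%), none was called (0% and 0.0118%), and their median was 0.52 and 0.07. Of the 12 lower at F1, 10 had a negative one at F5 (50.0% of all genes) and 10 at 6 mm (48.5%). Of them 6 and 3 did not overlap (3.66% and 5.92%), 6 and 3 had an unadjusted p under 0.05 (1.59% and 1.38%), and their median was -0.59 and -0.70. At 6 mm most of the lower genes thus lay in the same direction and the higher genes were divided, a difference between the sets that was not tested. Libraries of different stages carry the same hen numbers, so the stages are not independent hens. At F5 NC replicates 2 and 3 and bic replicate 1 held 288, 601 and 663 FPKM of INHA.

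KRT23 was called at 6 mm. Its log2 fold change there was -3.42 with a standard error of 0.31 (edgeR adjusted p = 0.0477), 1 of 3 genes called lower at that stage (0.0177%), and at F5 it was -1.96 (edgeR adjusted p = 1.0). FKBP5 stood at 66.3 to 130 FPKM in bic and 173 to 240 in NC at 6 mm and at 115 to 203 and 207 to 273 at F5, without overlap (edgeR adjusted p = 0.863 and 1.0). ZBTB16 stood at 0.635 to 1.87 FPKM in bic and 3.72 to 8.02 in NC at 6 mm and at 1.21 to 3.34 and 4.59 to 5.6 at F5 (edgeR adjusted p = 0.863 and 1.0). CHAC1 stood at 2.94 to 3.73 FPKM in bic and 7.85 to 16.7 in NC at F5 and overlapped at 6 mm, and its NC level at F1 was the highest of the 3 NC stages.

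Several genes of the immediate early and stress response were at lower levels in bic. Of 35 tested, 6 had a p under 0.05 at a lower level and 0 at a higher level, beside 4.08% and 5.00% of all genes. The median log2 fold change was -0.60 with all libraries and 0.08 without NC replicate 1, so the median changed sign with that library. Without it 8 were lower and 3 higher, beside 783 and 901 of all 16518 genes. CEBPD, a transcription factor of acute responses, stood at 84.1, 78.6 and 128 FPKM in bic and 522, 313 and 281 in NC (log2 -1.96, edgeR adjusted p = 0.420). Without NC replicate 1 its log2 value was -1.56, and NC GCs of F1 held 719 FPKM of it. The locus named GADD45B, a stress-response gene, stood at 9.82, 10.8 and 8.30 in bic against 39.4, 33.1 and 61.7 in NC (log2 -2.37, edgeR adjusted p = 0.240). Its log2 value was -2.4 without NC replicate 1, and it stood at 0.98 FPKM in those GCs. The files have it on chromosome Z and GRCg7b on chromosome 28, so its name is uncertain. Further genes of this kind, chosen after their values were seen, were NFKBIA, the inhibitor of NF-kappa B, at 30.7 to 34.4 FPKM in bic and 71.0 to 93.2 in NC, and DDIT4, a stress-induced inhibitor of mTOR signalling, at 92.3 to 142 against 262 to 295 (edgeR adjusted p = 0.280 and 0.289). The fit with the libraries as labelled treats both bic libraries of hen 1 as independent. In it NFKBIA and the GADD45B locus passed, at adjusted p-values of 0.0385 and 0.0388 by edgeR, and DDIT4 did not, at 0.0522.

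**Figure D5:**
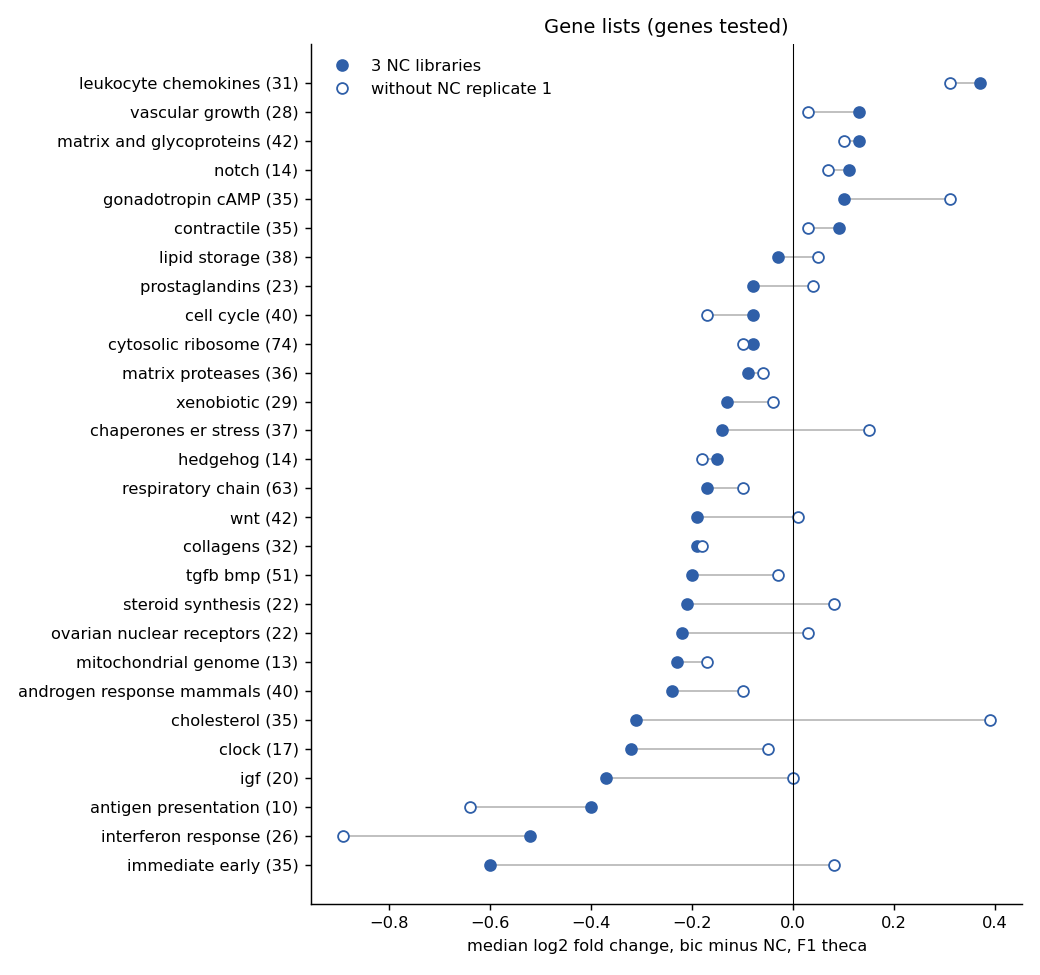
Median log2 fold change (bic minus NC, edgeR) of gene lists in F1 theca, with the number of genes tested in brackets, filled for all libraries and open without NC replicate 1. The median of cholesterol genes was -0.31 and 0.39, and that of immediate early genes -0.60 and 0.08.

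No list held a gene that passed the test. Genes of cholesterol synthesis, uptake and transport changed sign with the NC libraries used. Their median over 35 genes was -0.31 with all libraries, with 0 genes at a p under 0.05 in either direction, and 0.39 without NC replicate 1, with 10 genes higher and 0 lower, beside 901 higher and 783 lower of all 16518 genes in that fit. INSIG2, a sterol sensor of the endoplasmic reticulum, had the smallest p with all libraries, at 46.6, 50.2 and 48.4 FPKM in bic and 23.9, 28.5 and 41.1 in NC (log2 0.53, edgeR adjusted p = 0.542).

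Signalling genes of the gonadotropin and cAMP pathway had a median of 0.10 over 35 genes, 3 higher and 2 lower at a p under 0.05, beside 5.00% and 4.08% of all genes. Without NC replicate 1 the median was 0.31, with 5 higher and 1 lower, beside 901 and 783 of all 16518 genes. PDE3A, a phosphodiesterase that breaks down cAMP, stood at 15.5, 16.9 and 16.1 FPKM in bic and 8.01, 9.07 and 12.5 in NC (log2 0.61, edgeR adjusted p = 0.537). In the TGF-beta and BMP family 6 of 51 genes were higher and 6 lower at a p under 0.05, beside 5.00% and 4.08% of all genes. Without NC replicate 1 they were 5 and 6, beside 901 and 783 of all 16518 genes. INHBA, the activin beta A subunit, stood at 4.52, 6.72 and 5.78 FPKM in bic and 1.73, 1.09 and 1.05 in NC (log2 2.26, standard error 0.44, edgeR adjusted p = 0.372). At 6 mm it stood at 1.54 to 6.91 in bic and 0.739 to 1.11 in NC, likewise without overlap. At F5 the groups overlapped for INHBA, at 2.49 to 4.38 FPKM in bic and 2.38 to 3.4 in NC. The locus named AMHR2, on chromosome 7 in the files and on 34 in GRCg7b, was lower at 3.34 to 4.64 FPKM in bic against 6.79 to 7.55 in NC.

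Among stromal genes the balance depended on NC replicate 1. Of 42 matrix and glycoprotein genes, 5 were higher and 2 lower at a p under 0.05 with all libraries, beside 5.00% and 4.08% of all genes. Without NC replicate 1 the counts were 6 and 6, beside 901 and 783 of all 16518 genes. With all libraries 11 did not overlap on the higher side, beside 17.6% of all genes. OGN, a small leucine-rich proteoglycan, stood at 26.5, 25.7 and 39.7 FPKM in bic and 10.1, 10.7 and 14.3 in NC (log2 1.39, edgeR adjusted p = 0.350), and POSTN, a matrix protein bound by integrins, at 16.3 to 20.4 against 6.83 to 11.1. PDGFRA, a receptor of mesenchymal cells, stood at 24.9, 31.2 and 28.6 FPKM in bic and 6.31, 8.68 and 17.7 in NC (log2 1.3, edgeR adjusted p = 0.537). NC theca held 50.3 to 57.3 FPKM of PDGFRA at 6 mm. Of 32 collagens 2 were higher and 2 lower at a p under 0.05, beside 5.00% and 4.08% of all genes. Without NC replicate 1 the counts were 2 and 5, beside 901 and 783 of all 16518 genes. With all libraries the median of the collagens was -0.19. Of them 5 did not overlap on the higher side and 0 on the lower, beside 17.6% and 7.67% of all genes. COL3A1, among the most abundant, was at 1890 to 1980 FPKM in bic and 1970 to 2360 in NC, and COL15A1, a collagen of basement membrane zones, at 30.7 to 35.0 against 17.2 to 24.4 (edgeR adjusted p = 0.537 for both).

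Contractile genes, which mark the smooth muscle of the theca externa, had a median of 0.09 over 35 genes. Of them 2 were higher and 0 lower at a p under 0.05, beside 5.00% and 4.08% of all genes. Without NC replicate 1 the counts were 0 and 3, beside 901 and 783 of all 16518 genes. MYLK, the myosin light chain kinase, and CALD1, caldesmon, stood at 194 to 294 and 211 to 277 FPKM in bic and at 82.7 to 192 and 93.8 to 199 in NC, with NC replicate 1 the lowest for both (edgeR adjusted p = 0.542 for both). PTGFR, the receptor for prostaglandin F2 alpha, which contracts smooth muscle, stood at 1.56, 1.81 and 1.62 against 0.281, 0.480 and 1.07. PLA2G4A, the phospholipase that frees arachidonic acid for prostaglandins, stood at 8.45, 9.71 and 9.78 FPKM in bic and 3.92, 2.66 and 4.55 in NC (log2 1.39, edgeR adjusted p = 0.361). HPGD, which inactivates prostaglandins, was at 1.12 to 1.46 FPKM in bic and 2.49 to 3.05 in NC (log2 -1.14, edgeR adjusted p = 0.487). Of 23 prostaglandin genes 2 were higher and 3 lower at a p under 0.05, beside 5.00% and 4.08% of all genes. Without NC replicate 1 they were 1 and 3, beside 901 and 783 of all 16518 genes.

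Of 31 leukocyte and chemokine genes 5 were higher and 1 lower at a p under 0.05, beside 5.00% and 4.08% of all genes, with a median of 0.37. The counts were the same without NC replicate 1, beside 901 and 783 of all 16518 genes. TNFSF13B, the B cell activating factor, stood at 15.7, 20.7 and 14.6 FPKM in bic and 5.6, 7.22 and 9.71 in NC, whereas IL6 was lower at 0.218 to 0.297 against 0.801 to 0.998 (edgeR adjusted p = 0.448 and 0.403). PTPRC, the CD45 antigen of leukocytes, stood at 2.76 to 4.57 FPKM in bic and 0.860 to 2.21 in NC (edgeR adjusted p = 0.542), lowest in NC replicate 1. Of the 13 leukocyte markers, PTPRC among them, 2 were higher and 0 lower at a p under 0.05, beside 5.00% and 4.08% of all genes. Without NC replicate 1 the counts were 0 and 1, beside 901 and 783 of all 16518 genes. The marker mean was 72.1 to 79.7 FPKM in bic and 45.8, 86.3 and 78.3 in NC replicates 1 to 3. Interferon-response genes had a median of -0.52 over 26 genes, or -0.89 without NC replicate 1, with NC replicate 2 the highest library.

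Growth and metabolism showed single genes. GLI3, a transcription factor of hedgehog signalling, stood at 2.07 to 2.39 FPKM in bic and 0.651 to 1.07 in NC (edgeR adjusted p = 0.349), JAG1, a Notch ligand, at 21.5 to 26.2 against 10.5 to 16.2 (edgeR adjusted p = 0.49), and DKK2, a secreted WNT inhibitor, at 0.684 to 0.841 against 0.168 to 0.25 (edgeR adjusted p = 0.41). CCND1, a cyclin of the G1 phase, stood at 14.9 to 19.3 FPKM in bic and 9.30 to 9.43 in NC (edgeR adjusted p = 0.434). Of 40 cell cycle genes 1 was higher and 3 lower at a p under 0.05, beside 5.00% and 4.08% of all genes. Without NC replicate 1 the counts were 1 and 4, beside 901 and 783 of all 16518 genes. PGF, a vascular growth factor, stood at 11.5 to 15.8 against 19.6 to 29.7 FPKM (edgeR adjusted p = 0.434). PNPLA2, the lipase that starts the breakdown of stored fat, stood at 50.4, 52.4 and 48.0 in bic and 248, 112 and 130 in NC (log2 -1.87, edgeR adjusted p = 0.464), with a log2 value of -1.34 without NC replicate 1 and 450 FPKM in NC GCs. None of these genes passed.

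Among housekeeping lists, the 74 genes of the cytosolic ribosome had a median of -0.08 with 0 genes at a p under 0.05 in either direction, the 63 of the respiratory chain -0.17 with 0 higher and 2 lower, and the 13 of the mitochondrial genome -0.23 with 0 and 0. Of these 13, 6 did not overlap on the lower side and 0 on the higher, beside 7.67% and 17.6% of all genes. At a p under 0.05 the shares of all genes were 5.00% higher and 4.08% lower. COX1 of the mitochondrial genome was at 2860 to 2940 FPKM in bic and 3150 to 3300 in NC (edgeR adjusted p = 0.554), without overlap and with a ratio of means of 0.902.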

How the data were processed

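Poly(A) RNA libraries of theca and granulosa layers were sequenced as 150 bp read pairs after preparation with a NEBNext Ultra kit. The authors aligned the reads with HISAT2 2.1.0 to Gallus_gallus-5.0, removed duplicates and quantified genes with StringTie 1.3.4d; the submitters' notes also name DESeq2 1.26.0. The deposited table holds the read count per gene, not normalized, and the deposited StringTie files hold the authors' FPKM, here summed per gene over its transcripts. Each count equalled coverage times length divided by 75, rounded up, so a read pair can add 4 counts. Entries without a symbol, at most 0.605% of a library in the series, were left out.

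Counts were tested with edgeR 4.0.16 (TMM, filterByExpr, quasi-likelihood) in R 4.3.3 on the compared groups, with Benjamini-Hochberg adjustment (threshold 0.05) and a minimum group mean of 1 FPKM. Hens shared between stages were not a term in the interaction fit. The standard error is the absolute log2 fold change divided by the square root of F. The fit was tested on simulated data. Alternatives used DESeq2 1.42.0 and limma 3.58.1, RLE factors, no filter, a replicate block and libraries left out; fits as labelled without NC replicate 1, without libraries high in INHA and at F5 and 6 mm were added after seeing the data. The genes named were the 12 with the smallest p in each direction with a single-locus symbol, 11 fixed genes, the 2 with the smallest p of each list and the 5 of the interaction. HSD3B2, NFKBIA, DDIT4, DEPDC6 and the neighbours on chromosome 20 were added after their values were seen, and some genes that the rule names are not reported here. These genes, lists and tests were chosen with earlier results of these data known.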

Additional observations from a re-analysis of the deposited data

Results flagged for a closer look

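The difference between bic and NC in F1 theca departed from that in F5 theca for 4 genes by a test of the difference itself (edgeR interaction). That test took F1 and F5 libraries as independent although they carry the same hen numbers. For CYP17A1 the F1 value exceeded the F5 value by 4.98 on the log2 scale. Bic and NC libraries overlapped at F5 and lay apart at F1. For the chromosome 20 locus named DEPTOR it was 3.47, with 20.1, 24.3 and 15.8 FPKM in bic F5 and 15.8, 15.4 and 9.08 in NC F5.

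The other 2 are unplaced loci of unknown function. The fitted difference was 24.77 for LOC101751423 and 13.47 for LOC107056545. LOC101751423 was listed at 7.97, 10.6 and 11.9 FPKM in bic F1, at 0 in all 3 NC F1 libraries and all 3 bic F5 libraries, and at 13.8, 7.99 and 7.12 in NC F5. LOC107056545 was listed at 0, 20.1 and 32.4 FPKM in bic F1, at 0 in NC F1, and at 6.95 to 17.9 in the F5 libraries. Its 0 and 20.1 belong to the 2 libraries of the same hen. Fitted values against groups at 0 depend on the prior count and are no bound on a fold.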

How the results depend on the processing

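The count of 0 genes higher and 0 lower became 23 and 22 with the libraries as labelled, 265 and 239 with DESeq2, 3 and 1 with limma-voom and 25 and 8 with all theca libraries in 1 fit. It became 4 and 0 with RLE factors, without the low-count filter and with counts divided by 4. With 3 bic libraries and without NC replicate 1, chosen after seeing the data, it became 58 and 56. Leaving out a library gave 0 to 4 higher and 0 to 2 lower, with calls only without bic replicate 1 (4 and 0) or bic replicate 2 (4 and 2). Without bic replicate 3, or replicates 1 and 2, the lone bic hen is assumed to vary like NC, and no gene was called. Lists with a called gene numbered 0 as reported, 6 as labelled, 24 with DESeq2, 4 with all theca libraries, 13 as labelled without NC replicate 1, 2 with RLE factors, limma-voom, no filter or counts divided by 4, and 0 to 2 without a library.

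The 4 genes of the interaction became 79 with DESeq2 and 2 to 7 without a library, the fewest without bic F5 replicate 1 or NC F5 replicate 1 and the most without NC F1 replicate 1 or 3 or NC F5 replicate 3. The DEPTOR locus lost its call without any 1 of 8 libraries, with adjusted p-values up to 0.168. Bic and NC libraries share only a replicate number. The residuals of same-numbered libraries correlated at 0.07, -0.03 and 0.08 over 16829 genes, and with a replicate block, as labelled, 0 genes were called higher and 0 lower.

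Signs turned for STAR (-1.18 as reported, 2.99 in limma-voom, 3.12 with the replicate block, -1.73 to 4.68 without a library, the highest without NC replicate 1, and 4.72 as labelled without it), for INHA (-3.91 as reported, 1.00 in limma-voom, -7.49 to 3.51 or, for single libraries, -4.46 to 3.51, the highest without NC replicate 1, and 3.88 as labelled without it), for ESR2 (0.03 as reported, -0.05 to 0.40 without a library, -0.45 without bic replicates 1 and 2) and for LOC107056727 (-0.10 as reported, -1.15 to 0.26 without a library, 0.50 without bic replicates 1 and 2). The limma-voom fit used sample quality weights, so its libraries did not count equally. The cause of these turns was not tested.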

Other observations

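Genes listed at 0 FPKM in 1 library and at 5 FPKM or more in another were as frequent within a hen as between hens. There were 58 such genes of 26619 between bic replicates 1 and 2, the libraries of hen 1, against 52 and 68 between either and replicate 3 and 68 to 74 between NC libraries. Genes listed at 0 in a whole group are to be read beside these counts.

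The fifth gene of the interaction was LOC107056727, at 5.36, 0 and 8.28 FPKM in bic F1 and 3.98, 4.46 and 7.94 in NC F1, which did not pass (edgeR adjusted p = 0.148).

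Single markers of other cell types lay in either direction. FSHR, the receptor for follicle stimulating hormone, stood at 2.60 to 3.41 FPKM in bic and 4.45 to 5.96 in NC (edgeR adjusted p = 0.497), and CLDN5, a tight junction protein of endothelium, at 24.3 to 28.2 against 32.0 to 37.1 (edgeR adjusted p = 0.538), while CDH5 of endothelium lay the other way at 17.4 to 23.9 against 9.31 to 17.3. HBAA, a globin of red blood cells, stood at 246 to 378 FPKM in bic and 193 to 229 in NC (edgeR adjusted p = 0.569). Antigen presentation genes had a median log2 fold change of -0.40 over 10 genes, or -0.64 without NC replicate 1. At a p under 0.05, 0 were higher and 0 lower, beside 5.00% and 4.08% of all genes. Without NC replicate 1 the counts were 0 and 2, beside 901 and 783 of all 16518 genes. BF2 is a class I molecule of the chicken major histocompatibility complex. It stood at 345 to 445 FPKM in bic and at 270, 1060 and 814 in NC (log2 -0.97, or -1.33 without NC replicate 1).

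Genes of WNT and insulin-like growth factor signalling also held single genes at lower levels in bic. NOTUM, which inactivates WNT ligands, stood at 0.930 to 1.48 FPKM in bic and 2.67 to 3.50 in NC (log2 -1.60, edgeR adjusted p = 0.35), and STC2, a secreted inhibitor of a protease of this growth factor system, at 55.6 to 63.1 against 85.3 to 96.7 (log2 -0.75, edgeR adjusted p = 0.403). Among genes of redox and drug metabolism TXNRD1, thioredoxin reductase, was higher in bic at 9.83 to 12 FPKM against 4.80 to 6.96 (edgeR adjusted p = 0.5) and CYP2D6, a drug-metabolising cytochrome, lower at 5.32 to 7.04 against 9.14 to 14 (edgeR adjusted p = 0.485). None of these passed the adjustment.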
